A study of Mus musculus with 194 samples.

Results

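The genes described here encode nuclear subunits of the mitochondrial oxidative phosphorylation complexes and assembly factors of complexes I and II. They were taken by symbol from the protein-coding genes of chromosomes 1 to 19 and X of mouse build GRCm38, as every gene whose symbol begins with Nduf, Sdh, Uqcr, Cox4 to Cox8 or Atp5. This gave 100 of 21631 genes. Grouped by symbol alone, 41 were placed with complex I (NADH dehydrogenase), 4 with complex II (succinate dehydrogenase) and 8 with complex III (the cytochrome bc1 complex). Another 18 were placed with complex IV (cytochrome c oxidase), 17 with complex V (ATP synthase) and 12 with the assembly factors. This grouping follows the symbol and not the place of the protein, and it puts Ndufa4 and Ndufa4l2 with complex I.

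Complexes I to IV pass electrons from NADH and succinate to oxygen. Complexes I, III and IV pump protons across the inner mitochondrial membrane, and complex V uses the returning protons to make ATP. Other subunits are encoded by mitochondrial DNA or by nuclear genes outside the symbol rule, such as Cyc1. The promoters of the nuclear genes are known to bind Nrf1, the Gabpa and Gabpb1 dimer, Yy1 and Sp1, a zinc finger protein that recognises GC boxes, and neurons depend on this pathway for the energy that signalling costs.

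Insertions of a transposon were mapped in mouse cortex with calling cards. A transposase puts a reporter transposon into TTAA sequences near its place on the genome, and joining it to a DNA-binding protein is meant to record the sites of that protein. Adeno-associated virus was injected on postnatal day 0 to 1. The insertions were read from RNA that the transposon itself produces, except in the group BrokenHeart, where they were read from DNA. Each cortex was cut into 10 pieces with a library each, which the submitters combined into 1 table per animal. Because the tissue of the compared groups was taken whole, more insertions near a gene, more recovered cells and more transcript per insertion cannot be told apart.

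The reference group is Syn1Cre, 6 mice that carry Cre under the synapsin 1 promoter, which is active in neurons, with no SP1 in the sample name. The labels give no age for this group. The group Syn1Cre_SP1_P28 holds 4 mice and Syn1Cre_SP1_P10 holds 3 mice of the same Cre line, whose names add SP1 and postnatal day 28 or 10. How the SP1 agent was built is not given in the sources used here. C57bl6J holds 2 mice without a Cre name, injected with viruses that do not need Cre. N2a is a mouse neuroblastoma cell line whose 3 experiments were pooled into 1 table, so its values have no replicate error. The 7 remaining groups are used for levels only. By their label names they are Syn1CreNeg, GFAPCre, GFAPCreNeg, Frontflip_GFAPCre, Frontflip_GFAPCreNeg, Rbp4Cre_TRAP and BrokenHeart.

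The reference animals held 443158 to 1364948 insertions each, the SP1 P28 animals 108965 to 577609 and the SP1 P10 animals 86842 to 95331. The C57bl6J tables held 1545951 and 2186743 insertions and that of N2a held 806653. At these depths 3 insertions over the whole group correspond to 0.538 IPM in Syn1Cre (IPM, insertions per 1000000 insertions of the table), 2.77 in SP1 P28 and 11.03 in SP1 P10, so a low level at P10 cannot be read for most single genes. No sequencing pool held both SP1 and Syn1Cre animals, so pool and SP1 cannot be told apart. Both SP1 groups were compared with the same 6 Syn1Cre animals.

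RefSeq promoters (build GRCm38.p6, 250 bases before to 50 after the start) were found for 82 of the 100 genes. The following 5 are printed because 4 are among the 5 genes with the largest fold changes in SP1 P28 animals and the last to the gene with the lowest fold change. Each runs 5′ to 3′ on the strand of its gene, with GC boxes (GGGCGG, or CCGCCC on the other strand) in capitals.
Ndufa11: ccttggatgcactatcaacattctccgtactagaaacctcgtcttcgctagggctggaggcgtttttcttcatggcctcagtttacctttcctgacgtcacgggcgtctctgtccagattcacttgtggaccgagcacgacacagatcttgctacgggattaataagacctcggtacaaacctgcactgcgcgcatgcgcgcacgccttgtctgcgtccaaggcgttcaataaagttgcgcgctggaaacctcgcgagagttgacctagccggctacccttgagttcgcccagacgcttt
Ndufv3: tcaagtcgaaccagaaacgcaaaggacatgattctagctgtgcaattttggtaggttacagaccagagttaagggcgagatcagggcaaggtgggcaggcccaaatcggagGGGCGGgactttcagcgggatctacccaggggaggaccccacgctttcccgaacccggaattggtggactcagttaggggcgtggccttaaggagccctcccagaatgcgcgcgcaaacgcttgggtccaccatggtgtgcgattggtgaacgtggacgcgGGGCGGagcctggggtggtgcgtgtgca
Cox6b2: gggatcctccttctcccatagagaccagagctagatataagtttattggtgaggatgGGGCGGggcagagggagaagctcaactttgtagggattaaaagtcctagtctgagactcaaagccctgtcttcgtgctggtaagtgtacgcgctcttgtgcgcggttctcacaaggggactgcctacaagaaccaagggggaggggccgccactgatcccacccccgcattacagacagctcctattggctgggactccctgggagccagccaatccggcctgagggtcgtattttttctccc
Sdhaf1: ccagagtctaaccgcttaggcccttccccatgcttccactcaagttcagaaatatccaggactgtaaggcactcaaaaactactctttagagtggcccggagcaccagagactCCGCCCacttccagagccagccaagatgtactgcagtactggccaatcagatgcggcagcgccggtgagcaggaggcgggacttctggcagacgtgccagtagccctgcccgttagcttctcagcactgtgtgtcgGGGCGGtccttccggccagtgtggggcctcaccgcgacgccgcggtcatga
Ndufs3: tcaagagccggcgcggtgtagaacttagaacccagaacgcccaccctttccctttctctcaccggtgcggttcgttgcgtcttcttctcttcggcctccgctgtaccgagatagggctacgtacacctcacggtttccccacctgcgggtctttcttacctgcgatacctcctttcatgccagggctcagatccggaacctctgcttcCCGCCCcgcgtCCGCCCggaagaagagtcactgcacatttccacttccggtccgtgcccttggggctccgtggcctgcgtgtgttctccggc
The windows are chr17:56717512-56717811 (plus strand) for Ndufa11, chr17:31519865-31520164 (plus strand) for Ndufv3, chr7:4753045-4753344 (minus strand) for Cox6b2, chr7:30322326-30322625 (minus strand) for Sdhaf1 and chr2:90904672-90904971 (minus strand) for Ndufs3. Ndufa11, the gene with the largest fold change at P28, has 0 GC boxes in this window, but only 5.13% of its P28 insertions lay nearest to it. Ndufs3, the lowest, from 2 insertions at P28, has 2 boxes, as do Ndufv3 and Sdhaf1. No relation of boxes to fold change can be read from these 5 windows, and the counts over all genes are given below. Cox6b2 has 1. The insertions follow the TTAA sequences in these letters: in the Ndufv3 window, bases 69 to 72 (ttaa, start at chr17:31519933) held 20 insertions in SP1 P28 animals, 11 in SP1 P10 animals and 1 in Syn1Cre. In the Ndufa11 window, bases 160 to 163 (ttaa, start at chr17:56717671) held 9 at P28, 1 at P10 and 6 in Syn1Cre. Across all windows of these genes, 36 of 36 distinct insertion positions began on TTAA.

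Insertions within 1 kb of either end of these genes were more frequent in every SP1 animal than in any Syn1Cre animal. The 6 Syn1Cre animals held 486 to 632 IPM there, with a median of 580 (568 ± 52.9, SD, n = 6). The SP1 P28 animals 1 to 4 held 1207, 1009.5, 1300.0 and 1065 IPM (1145 ± 133, SD, n = 4), and the SP1 P10 animals 1 to 3 held 1198, 1359 and 1458 (1338 ± 131, SD, n = 3). The SP1 groups overlapped each other and neither overlapped Syn1Cre, and the ratio of means to Syn1Cre was 2.02 at P28 and 2.36 at P10. Depth moved with this level: the 6 Syn1Cre animals stood in exactly the reverse order by level and by depth, from 632 IPM at 443158 insertions to 486 at 1364948, and 6 of the 7 SP1 animals were shallower than all of them. SP1 P28 animal 4, with 577609 insertions, was deeper than the shallowest Syn1Cre animal and held 1065 IPM. The part of depth in the difference was not tested. Within 5 kb the ratios were 1.61 and 1.76, from 1320 to 1536 IPM in Syn1Cre, 2268 to 2424 at P28 and 2372 to 2853 at P10.

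**Figure D1:**
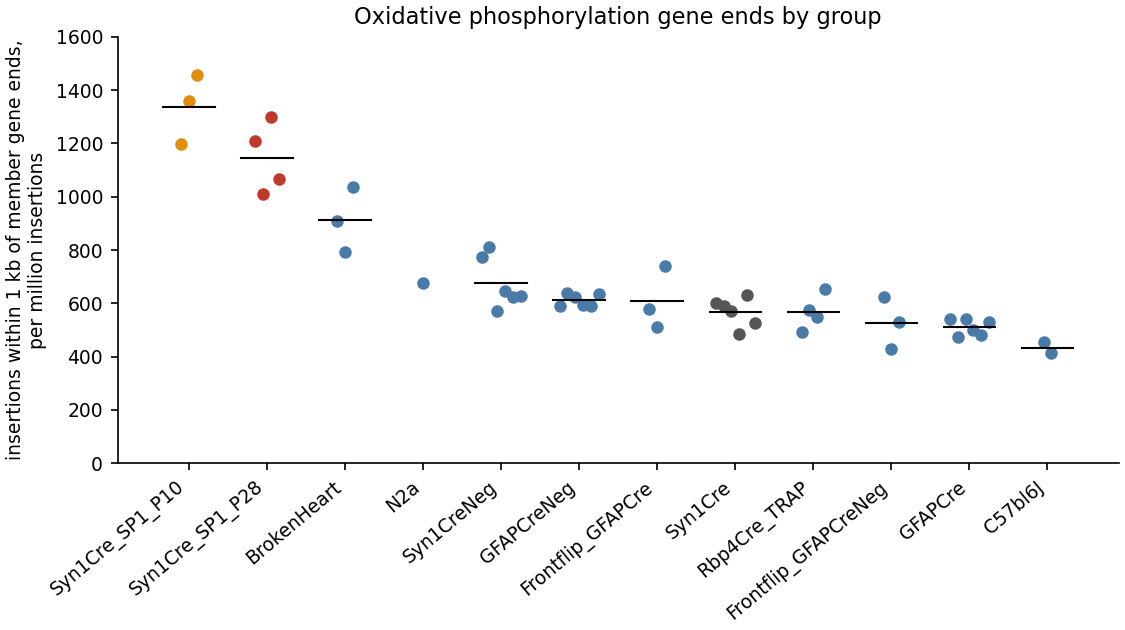
Insertions within 1 kb of either end of the 100 oxidative phosphorylation genes, in IPM (vertical axis, linear), for each of the 12 groups (horizontal axis). Each point is 1 animal (N2a is 1 pooled table) and each short horizontal line is the group mean. The SP1 P10 animals sit at 1198 to 1458 and the SP1 P28 animals at 1009.5 to 1300.0, above the 486 to 632 of Syn1Cre.

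The remaining groups stood near the reference or between it and SP1. The C57bl6J animals held 453 and 412 IPM (433 ± 29.3, SD, n = 2), both below the lowest Syn1Cre animal, and the N2a table held 674. The highest group without SP1 was BrokenHeart, whose insertions were read from DNA, with 794 to 1035 IPM in 3 animals, so that its highest animal lay above the lowest SP1 P28 animal. The Cre-negative controls of this line, named Syn1CreNeg, held 571 to 810 in 6 animals.

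The ratio was smaller than that of gene ends in general. Positions within 1 kb of any protein-coding gene end took 7.02% to 8.23% of all insertions in Syn1Cre, 16.6% to 22.4% at P28 and 21.6% to 23.5% at P10, which is a ratio of means of 2.58 and 2.98. The oxidative phosphorylation genes therefore held 0.693% to 0.768% of gene-end insertions in Syn1Cre, 0.451% to 0.640% in SP1 P28 animals and 0.555% to 0.621% in SP1 P10 animals. Every SP1 animal lay below every Syn1Cre animal on this share, and so did C57bl6J (0.642% and 0.669%) and N2a (0.644%).

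The same held just before the transcription start. In the 500 bases before the start, the 82 genes with a mapped start held 1.65 to 2.39 IPM per gene in Syn1Cre (1.93 ± 0.29, SD, n = 6), 4.14 to 5.63 at P28 (4.72 ± 0.65, SD, n = 4) and 5.06 to 5.76 at P10 (5.51 ± 0.39, SD, n = 3). Over all 17274 genes with a mapped start the means were 0.972, 3.95 and 4.80. The oxidative phosphorylation promoters thus held 1.85 to 2.20 times the level of the average promoter in Syn1Cre animals, but 0.880 to 1.49 times at P28 and 1.13 to 1.18 times at P10. Neither SP1 group overlapped Syn1Cre on this ratio, while the SP1 groups overlapped each other. Between 5 and 3 kb before the start the ratio was 1.37 to 1.76 in Syn1Cre, 0.968 to 1.53 at P28 and 1.08 to 1.49 at P10, and the groups overlapped.

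**Figure D2:**
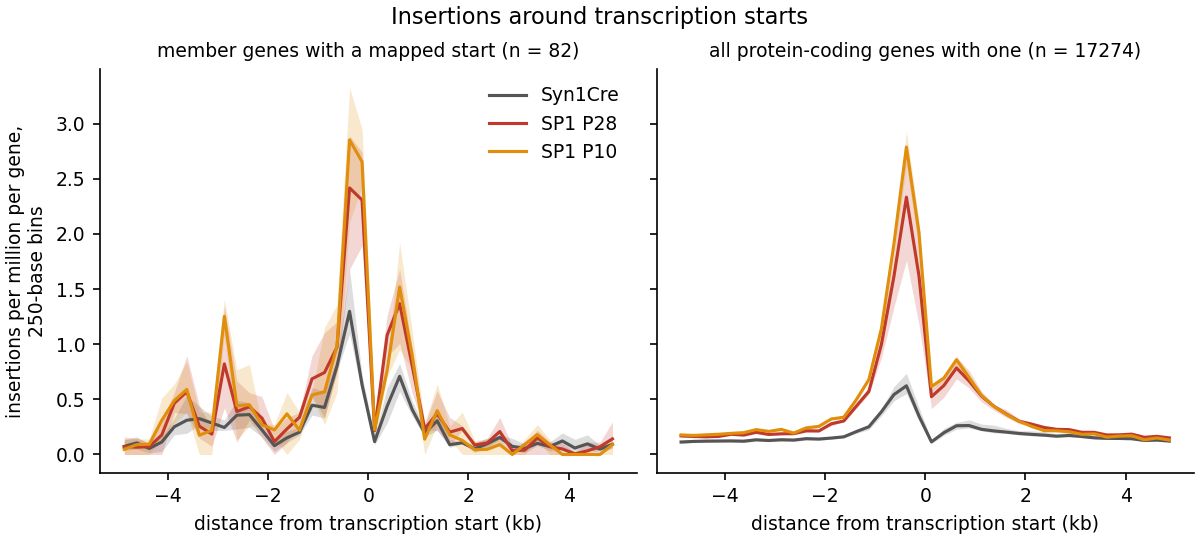
Mean IPM per gene in 250-base bins (vertical axis) by distance from the transcription start (horizontal axis, kb), for the 82 oxidative phosphorylation genes with a mapped start (left) and all 17274 such genes (right). Lines are group means over 6 Syn1Cre, 4 SP1 P28 and 3 SP1 P10 animals and shading spans the lowest to the highest animal; the Syn1Cre peak is higher on the left than on the right while the SP1 peaks are of similar height.

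Most insertions near these genes lay at the 5′ end. Of the insertions assigned to either end of 72 genes longer than 2 kb, 82.4% to 85.4% were at the 5′ end in Syn1Cre, 88.2% to 92.6% at P28 and 91.5% to 91.9% at P10. The same share over 15243 genes was 67.0% to 72.9%, 82.1% to 86.1% and 86.2% to 86.6%. In C57bl6J it was 81.0% and 84.0% for the oxidative phosphorylation genes, and in N2a 89.3%.

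Gene by gene, SP1 P28 animals were compared with Syn1Cre by edgeR's quasi-likelihood test over all 11683 genes with at least 10 insertions in both groups together, with Benjamini-Hochberg adjustment and a threshold of 0.05 on the adjusted p. Counted in IPM, 4844 genes (41.5%) were higher at P28 and 174 (1.49%) were lower, with a median log2 fold change of 0.92. Of the oxidative phosphorylation genes 80 could be tested, 27 were higher and 1 was lower, and their median log2 fold change was 0.74. The share called higher, 27 of 80, lay below the 41.5% of all genes tested, and this difference was not tested.

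After trimmed mean (TMM) scaling, which assumes that most genes do not change, 16.2% of genes were higher and 19.9% lower, with a median of -0.37. On that scale 6 oxidative phosphorylation genes were higher and 17 lower, with a median of -0.57. On both scales the median of these genes lay below that of all genes tested, and the scales differ in where 0 lies. Within 5 kb, 32.1% of 16847 genes were higher and 2.99% lower in IPM, and 27 and 3 of 98 oxidative phosphorylation genes. Directions below are in IPM unless TMM scaling is named.

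By complex, 11 of 30 tested complex I genes rose in IPM at P28 with a median log2 fold change of 0.96, and 1 fell. Ndufa4l2, placed here by its symbol only, is among the 11. Complex II had 2 of 4 higher, complex III 2 of 7, complex IV 6 of 15, complex V 2 of 15 and the assembly factors 4 of 9, with medians of 0.15, 0.57, 0.91, 0.68 and 0.58. Complex V thus had the smallest share past the threshold, although 12 of its 15 fold changes were above 0. Summed per animal, complex V genes held 83.5 to 107 IPM in Syn1Cre and 142 to 211 at P28, and complex I genes 174 to 205 and 248 to 395. No difference between complexes was tested.

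At P10, 10850 genes were tested against Syn1Cre and 27.8% were higher and 0.664% lower in IPM, with a median log2 fold change of 0.83. Of 75 oxidative phosphorylation genes tested 16 were higher and 1 was lower, with a median of 0.52. Of these, 17 had 0 insertions at P10, where the fitted fold depends on the prior count, and with such genes placed at the limit of 3 insertions the median was 1.10, against 1.45 for all genes. After TMM scaling 10% of genes were higher and 24.2% lower, and 6 and 24 of the oxidative phosphorylation genes, with medians of -1.12 for all genes and -1.40 for these. Of the genes called lower, 7 of the 24 and 956 of all 2624 had 0 insertions at P10. The TMM medians include genes at 0 without placing them at the limit. Within 5 kb, 21.8% of genes were higher and 1.97% lower in IPM, and 20 and 4 of 98 oxidative phosphorylation genes.

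Complex I had 6 of 27 higher at P10, complex II 1 of 4, complex III 1 of 7, complex IV 2 of 14, complex V 3 of 14 and the assembly factors 3 of 9. In all, 37 of the 100 genes had 0 insertions in the 3 P10 animals and 12 had 0 in the 4 P28 animals. None of these genes had a Syn1Cre mean above the limit of 3 insertions in the SP1 group, so no fold is given for them. The nearest was Uqcrb, a subunit of complex III, with a Syn1Cre mean of 10.5 IPM against the P10 limit of 11.03.

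**Figure D3:**
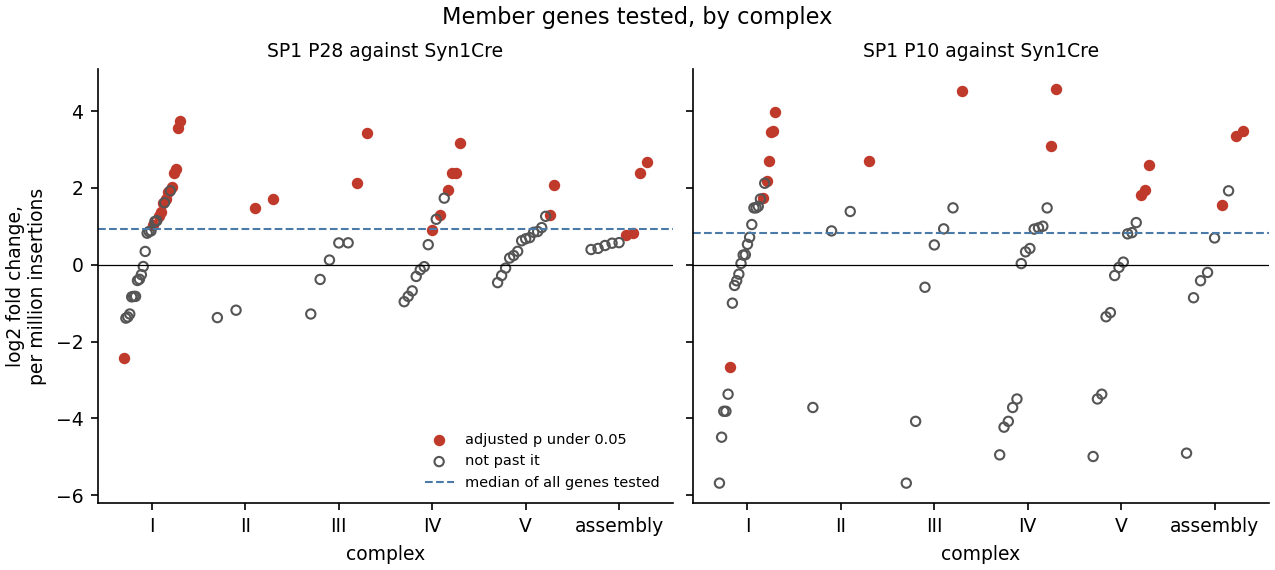
Log2 fold change in IPM (vertical axis) of each oxidative phosphorylation gene tested, by complex (horizontal axis), for SP1 P28 (left, 80 genes) and SP1 P10 (right, 75 genes) against Syn1Cre. Filled points passed an adjusted p of 0.05, open points did not, and the dashed line is the median of all genes tested (0.92 and 0.83); the lowest open points at P10 are genes with 0 insertions there.

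Among complex I genes the largest rise at P28 was at Ndufa11, which encodes an accessory subunit of the membrane arm (chr17:56717762-56724248). It held 30.2, 18.4, 36.4 and 41.6 IPM in P28 animals 1 to 4, 11.5, 33.4 and 42.0 at P10, and 0 to 5.31 with a median of 2.68 in Syn1Cre. All SP1 animals lay above all Syn1Cre animals. The log2 fold change was 3.73 at P28 (SE 0.42, adjusted p = 2.3e-17; 2.43 after TMM scaling) and 3.45 at P10 (SE 0.80, adjusted p = 9.91e-05; 1.46 after TMM scaling, adjusted p = 0.0902). Of the P28 insertions 94.9% also lay within 1 kb of an end of the neighbour Vmac and 5.13% lay nearest to Ndufa11, so the rise belongs to the shared window and not to Ndufa11 alone.

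Ndufv3 encodes a small subunit of the NADH-oxidising module (chr17:31520115-31531326). It held 38.8, 27.5, 60.7 and 45.0 IPM at P28, 46.1, 55.7 and 73.4 at P10, and 0 to 5.96 with a median of 4.33 in Syn1Cre, with no overlap. Its log2 fold change was 3.55 at P28 (SE 0.38, adjusted p = 7.27e-20; 2.24 after TMM scaling) and 3.96 at P10 (SE 0.58, adjusted p = 1.43e-10; 1.95 after TMM scaling). The window is shared with Wdr4 for 85.4% of P28 insertions, and with each insertion counted only for its nearest gene end the log2 fold change after TMM scaling was 1.39 at P28 and 0.15 at P10, where it no longer passed the test (adjusted p = 0.901).

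Ndufb6, an accessory subunit of the membrane arm (chr4:40270591-40279421), shared 2.63% of its P28 insertions with a neighbour. It held 30.2, 45.9, 30.4 and 36.4 IPM at P28, 69.1, 22.3 and 31.5 at P10 and 3.90 to 8.35 with a median of 6.18 in Syn1Cre, so that every SP1 animal was higher. The log2 fold change was 2.48 at P28 (SE 0.37, adjusted p = 1.34e-10; 1.17 after TMM scaling) and 2.69 at P10 (SE 0.61, adjusted p = 7.36e-05; 0.68 after TMM scaling, adjusted p = 0.298), and the P10 call was lost without P10 animal 1 (adjusted p = 0.0512).

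Ndufs8, a core iron-sulphur subunit (chr19:3908863-3912774), was high at P10 with 34.5, 44.6 and 52.4 IPM. At P28 it held 12.9, 0, 0 and 13.9, and in Syn1Cre 1.19 to 6.77 with a median of 3.67, so that only the P10 animals stood apart from Syn1Cre. The log2 fold change was 3.48 at P10 (SE 0.64, adjusted p = 5.58e-07; 1.48 after TMM scaling) and 1.39 at P28 (SE 0.59, adjusted p = 0.0427; 0.084 after TMM scaling), and the P28 call was lost in 5 of 10 fits that left out 1 animal. Between P28 and P10 directly, Ndufs8 did not pass the test after TMM scaling or in IPM. At P10 100% of its insertions also lay within 1 kb of an end of Aldh3b1 or Tcirg1, and 100% lay nearest to Ndufs8.

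Ndufs3, a core subunit of the matrix arm (chr2:90894627-90904721), was the 1 gene that fell in IPM at P28. The Syn1Cre animals held 7.16 to 13.3 IPM with a median of 9.98, from 60 insertions. Of these insertions 50% also lay within 1 kb of an end of the neighbour Kbtbd4, and 50% lay nearest to Ndufs3. The fall is therefore that of a partly shared window. P28 animals 1, 2 and 4 held 0 and animal 3 held 12.1, from 2 insertions in all, and the P10 animals held 0, 22.3 and 0. The groups overlapped through the single animal with insertions in each SP1 group. The pooled ratio to Syn1Cre was 0.172 at P28 (95% counting interval 0.0203 to 0.647), the log2 fold change was -2.42 (SE 0.76, adjusted p = 0.00441; -3.62 after TMM scaling), and the call was lost without P28 animal 4 (adjusted p = 0.219).

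Of the next lowest at P28 after TMM scaling, Ndufb3, a membrane-arm subunit, had 3 insertions at P28 against 42 in Syn1Cre, a pooled ratio of 0.368 (95% counting interval 0.0729 to 1.15). Of the Ndufb3 insertions 64.3% in Syn1Cre and 100% at P28 also lay within 1 kb of an end of Fam126b. Ndufs4, a matrix-arm subunit whose loss in mice gives a Leigh-like disease, had 2 against 28, also a ratio of 0.368 (0.0424 to 1.46). Neither passed the test in IPM. Ndufa12, another matrix-arm subunit, was among the 5 genes with the most insertions in Syn1Cre, with 20.3 to 33.8 IPM. It held 12.9, 0, 24.3 and 13.9 at P28 and 0, 0 and 10.5 at P10, and it fell at P10 (log2 fold change -2.67, SE 1.00, adjusted p = 0.0295; -4.53 after TMM scaling), from 1 insertion, with a pooled ratio of 0.151 (95% counting interval 0.00379 to 0.854). That call was lost without P10 animal 1 or 2. Ndufb4, named after its values were seen, also rose at P28 (2.38, SE 0.57; 1.09 after TMM scaling, adjusted p = 0.121), but near-identical copies of this gene exist and reads could be split among them.

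**Figure D4:**
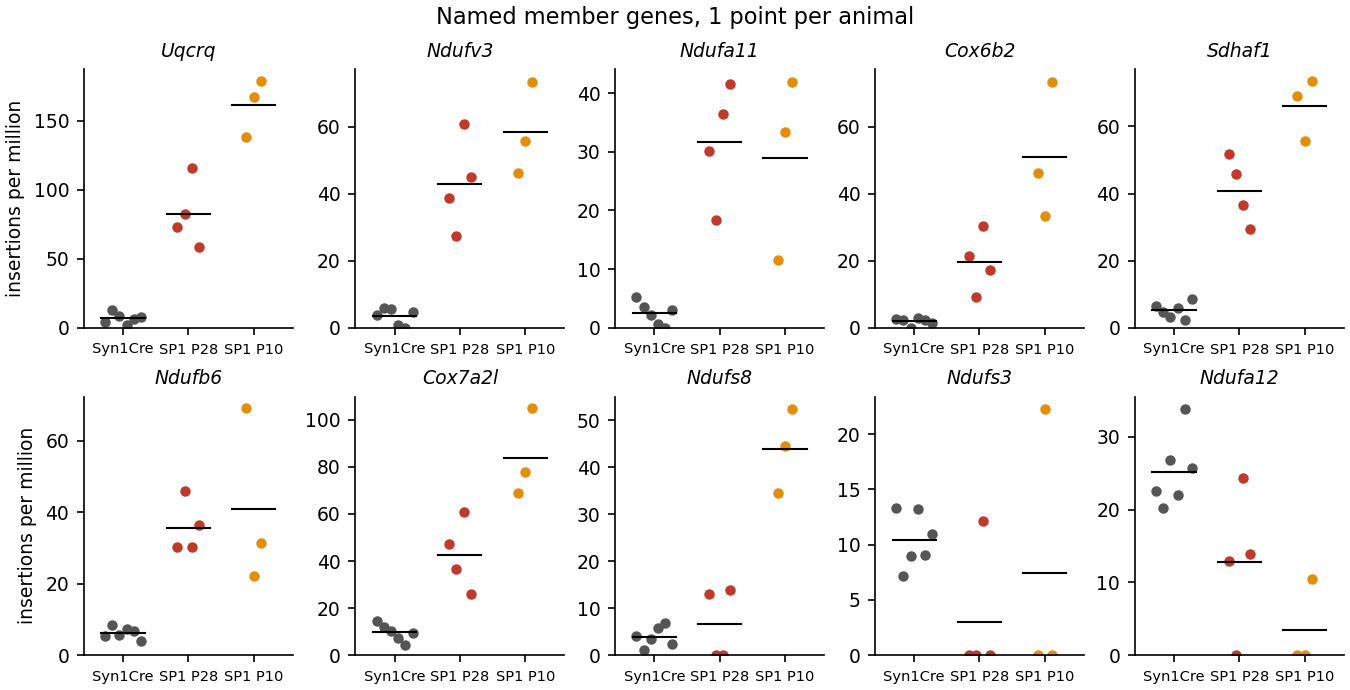
IPM within 1 kb of 10 named genes (vertical axes, linear, each with its own scale) in Syn1Cre (6 animals), SP1 P28 (4) and SP1 P10 (3). Each point is 1 animal and each short horizontal line is the group mean; at Uqcrq the SP1 P10 animals lie at 138 to 178, P28 at 58.9 to 115 and Syn1Cre at 2.20 to 13.1, while at Ndufa12 the P10 animals lie below Syn1Cre.

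In complex II, Sdhb (the iron-sulphur subunit) and Sdhc (a membrane anchor that binds ubiquinone) rose at P28. Sdhb held 17.2, 36.7, 36.4 and 17.3 IPM at P28, 11.5, 22.3 and 10.5 at P10 and 4.68 to 14.6 in Syn1Cre, with no overlap at P28 only (log2 fold change 1.48, SE 0.40, adjusted p = 0.000842). Its window has no neighbour. Sdhc held 12.9, 45.9, 24.3 and 20.8 at P28, 23.03, 66.8 and 42.0 at P10 and 3.66 to 10.6 in Syn1Cre, with fold changes of 1.71 at P28 (SE 0.41) and 2.70 at P10 (SE 0.58). Of its P28 insertions 20.8% had an end of Sdhc as their nearest gene end. Neither of the 2 rises passed after TMM scaling.

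Sdha, the flavoprotein, and Sdhd, the other anchor, held few insertions. Sdha had 1 at P28 and 2 at P10 against 15 in Syn1Cre, and Sdhd 1 and 0 against 13. The P28 ratios were 0.343 (95% counting interval 0.00815 to 2.23) and 0.396 (0.00931 to 2.64), so neither direction can be read.

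Of the assembly factors, Sdhaf1, which helps load iron-sulphur clusters into Sdhb, stood out in a window with no neighbour (chr7:30321409-30322375). It held 51.7, 45.9, 36.4 and 29.4 IPM at P28, 69.1, 55.7 and 73.4 at P10 and 2.26 to 8.59 with a median of 5.32 in Syn1Cre, and no SP1 animal overlapped Syn1Cre. The log2 fold change was 2.67 at P28 (SE 0.37, adjusted p = 3.33e-12; 1.33 after TMM scaling) and 3.48 at P10 (SE 0.52, adjusted p = 2.23e-10; 1.47 after TMM scaling). It was also high in N2a, at 47.1 IPM, against 7.12 and 2.74 in C57bl6J.

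Sdhaf2, which attaches the flavin to Sdha, was the gene with the most insertions in Syn1Cre, at 17.96 to 36.1 IPM with a median of 26.9. It held 60.4, 36.7, 36.4 and 39.8 at P28, just above the highest Syn1Cre animal (log2 fold change 0.76, SE 0.30, adjusted p = 0.0261; -0.55 after TMM scaling, adjusted p = 0.0623), and 23.03, 11.1 and 31.5 at P10, within the Syn1Cre range or below it. The P28 call was lost without P28 animal 1 and without Syn1Cre animal 6. Of the P28 insertions 83.0% also lay within 1 kb of an end of Cpsf7, and 100% lay nearest to Sdhaf2. At P10 Sdhaf2 fell after TMM scaling (-2.19, adjusted p = 3.5e-05) and did not pass in IPM (-0.20). Ndufaf4, a complex I assembly factor that was also among the 5 with the most insertions in Syn1Cre (12.5 to 27.1), held 30.2, 18.4, 30.4 and 24.2 at P28 and 23.03, 44.6 and 20.98 at P10, did not pass in IPM and fell after TMM scaling (-0.80 at P28, adjusted p = 0.0232, and -1.30 at P10, adjusted p = 0.0188). Its insertions centred on 1 position 164 bases before the start, with 59 of 100 in Syn1Cre, 22 of 28 at P28 and 8 of 8 at P10.

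Uqcrq, a small subunit of complex III, had the highest level of all 100 genes in both SP1 groups (chr11:53427922-53430831). It held 73.3, 82.6, 115 and 58.9 IPM at P28, 138, 167 and 178 at P10 and 2.20 to 13.1 with a median of 7.29 in Syn1Cre. The 3 groups did not overlap, and the P10 animals were the highest. The log2 fold change was 3.44 at P28 (SE 0.31, adjusted p = 2.49e-27; 2.06 after TMM scaling) and 4.53 at P10 (SE 0.37, adjusted p = 3.83e-33; 2.51 after TMM scaling). Uqcrq alone made up 5.53% to 8.88% of the insertions near these 100 genes at P28 and 11.5% to 12.3% at P10, against 0.452% to 2.22% in Syn1Cre. Without Uqcrq the set held 484 to 625 IPM in Syn1Cre, 927 to 1185 at P28 and 1059 to 1280 at P10, still without overlap.

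The Uqcrq insertions fell on few positions. The 79 at P28 used 6 positions, and 39 of them (49.4%) lay at chr11:53431350, in 4 of 4 animals. The 44 at P10 used 4 positions, of which the commonest was chr11:53431465 with 22, and the 38 in Syn1Cre used 7, with 17 at chr11:53431350. At that position Syn1Cre animals held 1 to 5 insertions, P28 animals 7, 7, 10 and 15 and P10 animals 7, 7 and 6. Since a table held at most 10 insertions at 1 position on 1 strand, in all 13 tables, the 10 pieces of a cortex set a ceiling on such sites. Of the P28 insertions 96.2% also lay within 1 kb of an end of the neighbour Gdf9, and 96.2% lay nearest to Uqcrq.

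In complex IV, Cox6b2 (chr7:4751792-4753094), the testis isoform of the intermembrane-space subunit Cox6b, held 21.6, 9.18, 30.4 and 17.3 IPM at P28, 46.1, 33.4 and 73.4 at P10 and 0 to 2.93 with a median of 2.32 in Syn1Cre. All SP1 animals were higher, and the P10 animals were higher than the P28 animals. Of the Cox6b2 insertions 90.5% at P28 and 85.7% at P10 also lay within 1 kb of an end of the neighbour Fam71e2. In Syn1Cre 45.5% did. At P28 85.7% and at P10 100% lay nearest to Cox6b2. The log2 fold change was 3.18 at P28 (SE 0.54, adjusted p = 2.16e-08; 1.88 after TMM scaling) and 4.58 at P10 (SE 0.67, adjusted p = 1.4e-10; 2.57 after TMM scaling). At P28 16 of 21 insertions and at P10 12 of 14 lay at chr7:4752546, 548 bases from the gene start and inside the gene. Its broadly expressed counterpart Cox6b1 rose at P28 (2.38, SE 0.67, adjusted p = 0.0013; 1.10 after TMM scaling, adjusted p = 0.18) from 11 insertions and did not pass at P10.

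Cox7a2l, known for joining complexes III and IV into supercomplexes, is outside the rule for named genes and was chosen after its values were seen. It held 47.4, 36.7, 60.7 and 26.0 IPM at P28, 69.1, 77.97 and 105 at P10 and 4.51 to 14.6 with a median of 9.72 in Syn1Cre, with no overlap and no neighbour in its window. Its log2 fold change was 1.95 at P28 (SE 0.34, adjusted p = 7.02e-08; 0.59 after TMM scaling, adjusted p = 0.117) and 3.10 at P10 (SE 0.44, adjusted p = 2.11e-11; 1.08 after TMM scaling). The commonest position differed between groups: 418 bases before the start in SP1 animals (23 of 40 insertions at P28 and 14 of 23 at P10) and 861 bases before it in Syn1Cre (29 of 54).

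Cox8a and Cox6a1, broadly expressed small subunits, were among the 5 genes with the most insertions in Syn1Cre (14.7 to 27.9 and 18.7 to 35.9 IPM). Cox8a held 56.1, 36.7, 60.7 and 57.1 at P28, above all Syn1Cre animals (log2 fold change 1.29, SE 0.29, adjusted p = 2.73e-05; adjusted p = 0.98 after TMM scaling), and 57.6, 55.7 and 20.98 at P10, where it overlapped them (log2 fold change 1.004 in IPM, which did not pass, and -0.998 after TMM scaling, adjusted p = 0.0361). Cox6a1 held 17.2, 18.4, 18.2 and 13.9 at P28, below all Syn1Cre animals, and 11.5, 44.6 and 20.98 at P10. It did not pass in IPM at P28 (log2 fold change -0.68) and fell only after TMM scaling (-1.98, adjusted p = 7.63e-09).

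Most tissue-restricted isoforms held few insertions in any group. Cox6a2 and Cox7a1, the heart and muscle forms, had 4 insertions each in all Syn1Cre animals together and 0 and 1 at P28. Cox4i2 (lung) had 7 in Syn1Cre, Cox8b (heart and muscle) 14 and Cox8c (testis) 13, with 5, 4 and 6 at P28 and 2, 2 and 0 at P10, and none passed the test. Cox7b2 (testis) had 1 in Syn1Cre and 0 in both SP1 groups, but 23 in N2a. Of their broadly expressed counterparts, Cox7b rose at P28 (2.38, SE 0.55, adjusted p = 7.65e-05; 1.08 after TMM scaling, adjusted p = 0.109) with 17.2, 18.4, 18.2 and 12.1 IPM against 0 to 6.25, and Cox4i1 rose by 0.91 (SE 0.38, adjusted p = 0.0402; -0.38 after TMM scaling, adjusted p = 0.39) with 0 insertions in 1 of 4 animals; its call was kept in 4 of 10 fits that left out 1 animal. Cox7a2 and Ndufa4 held 11 and 17 insertions in Syn1Cre and did not pass.

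Ndufa4l2, a hypoxia-induced relative of Ndufa4, rose at both ages, from 3.36 to 11.9 IPM in Syn1Cre to 30.2, 36.7, 24.3 and 29.4 at P28 and 23.03, 55.7 and 31.5 at P10. Neither rise passed after TMM scaling (0.56 and 0.18), and the P10 call in IPM was lost without P10 animal 2 (adjusted p = 0.104). Every one of these insertions was also within 1 kb of Shmt2 or Stac3, and 0% were nearest to Ndufa4l2.

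In complex V, Atp5d (the delta subunit of the central stalk) and Atp5a1 (the alpha subunit of the catalytic head) rose at both ages, and Atp5e (the epsilon subunit) at P10. They are given because they are the only complex V genes past the test in IPM and were chosen after their values were seen. Atp5d held 38.8, 45.9, 30.4 and 24.2 IPM at P28, 34.5, 44.6 and 52.4 at P10 and 5.86 to 9.30 in Syn1Cre. Atp5a1 held 51.7, 55.1, 36.4 and 32.9, then 69.1, 44.6 and 62.9, against 11.3 to 23.9. Both were without overlap, and neither passed after TMM scaling. Of the Atp5a1 insertions 97.7% at P28 and 100% at P10 also lay within 1 kb of an end of Haus1. At P28 81.4% and at P10 81.25% lay nearest to Atp5a1. Atp5e held 23.03, 55.7 and 31.5 at P10 against 5.47 to 14.6 (log2 fold change 1.956, SE 0.59, adjusted p = 0.00426; -0.053 after TMM scaling), and that call was lost without P10 animal 2 (adjusted p = 0.166). Of the Atp5e insertions at P10, 80% also lay within 1 kb of an end of Prelid3b and 70% lay nearest to Atp5e. Atp5b, the catalytic beta subunit, held 12.9, 0, 6.07 and 8.66 at P28 against 3.58 to 12.3 and did not pass.

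Sharing of windows affected many of these genes: 60 of the 100 have another protein-coding gene end within reach. With each insertion counted only for the gene with the nearest end, 21 of 66 genes tested were higher in IPM at P28 and 12 of 63 at P10, where 39.8% and 26.7% of all genes tested were.

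Counting each position once gave fewer calls after TMM scaling at both ages. Without TMM factors it gave fewer at P28 but not at P10. Counted as distinct positions after TMM scaling, 2 genes were higher at P28 and 0 at P10, against 6 and 6 by insertions, and 4.36% and 2.87% of all genes tested were higher. Without TMM factors, scaled to the distinct positions of each table, the counts were 20 of 78 and 18 of 72. Of all genes tested 33.9% and 28.1% were higher on that scale. By insertions in IPM the counts were 27 of 80 and 16 of 75, against 41.5% and 27.8% of all genes tested.

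The SP1 P28 and P10 animals were also compared directly. Of 6912 genes tested after TMM scaling 4 (0.0579%) passed, and of 47 oxidative phosphorylation genes 0 passed by edgeR, 10 had an unadjusted p under 0.05 and DESeq2 called 0. In IPM 0.0289% of genes passed, with 0 of these 47 and 5 at an unadjusted p under 0.05. The higher P10 levels at Uqcrq and Cox6b2 are not shown to differ between ages by this test.

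C57bl6J animals held fewer insertions near these genes than Syn1Cre, with a ratio of means of 0.762 within 1 kb and 0.822 within 5 kb, against 0.859 for all gene ends. Both C57bl6J tables were deeper than every Syn1Cre table, and the level was lower in deeper Syn1Cre animals, so depth and group cannot be told apart here. Of 12359 genes tested 12 (0.0971%) passed after TMM scaling. Of 84 oxidative phosphorylation genes 0 passed by edgeR, 3 had an unadjusted p under 0.05 and DESeq2 called 0. In IPM 0.178% of genes passed, with 0 of these 84 and 8 at an unadjusted p under 0.05. Their median log2 fold change was -0.04, and -0.28 IPM.

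GC boxes were not more common in these promoters than elsewhere. One or more were found in 39 of the 82 promoters (47.6%) and in 8100 of 17274 promoters (46.9%) of the same length, and 20 (24.4%) held 2 or more against 26.9%. TTAA was found in 47.6% and 48.7%. Over all genes, the share higher in IPM at P28 was 27.0% with no box, 40.7% with 1 and 57.4% with 2 or more. Among the oxidative phosphorylation genes 9 of 33 tested were higher with no box, 6 of 15 with 1 and 7 of 19 with 2 or more, so the members with 2 or more were called less often than such genes in general, without a test of that difference. At P10 the counts were 3 of 32, 3 of 15 and 5 of 16, against 16.6%, 26.1% and 41.1% of all genes. A match is a description of letters and not a binding site.

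Other gene lists were counted in the same way. Of all genes tested, 41.5% were higher in IPM at P28 and 27.8% at P10. No difference of a list from these shares was tested. Of 29 tested genes of the pathway outside the rule, 12 were higher in IPM at P28 with a median log2 fold change of 0.92, and at P10 9 of 28. Of the 13 tested regulators of mitochondrial genes, 7 were higher at P28 with a median of 1.12, and at P10 5 of 12 with a median of -0.24. Of these 12, 5 had 0 insertions at P10, where the fitted fold depends on the prior count. With such genes placed at the P10 limit the median of the regulators was 2.05, so the sign of the P10 median cannot be read. Of 78 tested cytoplasmic ribosomal protein genes, another set of housekeeping genes, 33 were higher at P28 with a median of 0.85, and at P10 19 of 73. GC boxes were present in 59.0% of ribosomal promoters.

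Marker genes for cell types are given by their summed levels. The summed level of 8 neuron markers was 49.1 to 83.7 IPM in Syn1Cre, 156 to 249 at P28 and 265 to 315 at P10, where Rbfox3 and Slc17a7 were at 0. That of 6 astrocyte markers was 35.9 to 176, 111 to 371 and 94.4 to 138, with Gfap and Aqp4 at 0 at P28 and Gfap at 0 at P10. Oligodendrocyte markers (6) held 21.3 to 74.5, 27.7 to 101 and 20.98 to 66.8, with Mbp and Sox10 at 0 in both SP1 groups. Microglial (4) and endothelial (3) markers held at most 8.35 and 5.60 in any Syn1Cre animal, 9.18 and 6.07 at P28 and 11.1 and 0 at P10, with Cx3cr1, Csf1r and Aif1 at 0 in both SP1 groups and Csf1r also at 0 in Syn1Cre. The part of these cell types in the results above was not tested.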

How the data were processed

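Calling card insertions were analysed from 47 deposited tables covering 194 labelled samples in 12 groups, grouped by the labels. Per the labels, each table lists insertions with a position, a strand and a read count that the authors obtained before deposit. Novoalign, Bowtie2 and the mm10 build are named in the submitters' processing notes, with no role given. Each row was counted as 1 insertion. BrokenHeart positions were shifted by 1 base to match the other tables.

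Rows within 1 kb (and 5 kb) of either end of each protein-coding gene were counted, so a row can count for several genes. Counts were tested with edgeR 4.0.16 (quasi-likelihood) under R 4.3.3, with at least 10 insertions over both groups, Benjamini-Hochberg adjustment over all genes tested and an adjusted p threshold of 0.05. TMM factors were the planned scaling; the text leads with insertions per 1000000 insertions of the table (IPM), which was added after seeing the data. Standard errors were derived from the fold change and the F statistic. DESeq2 1.42.0 was an alternative. Intervals on ratios of 3 or fewer insertions are exact, at 95%, and cover counting error only. Replicates are animals per the labels.

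Genes were named by rule: those past the threshold after TMM scaling without overlap between animals (the 8 highest at P28 and 5 highest at P10), the 3 lowest at P28, the 5 with the most insertions in Syn1Cre, complex II and isoform pairs. The members and lists were chosen with earlier results of these data known. Same-numbered animals did not deviate together, so the numbers pair no samples. The scripts were tested on simulated data.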

Additional observations from a re-analysis of the deposited data

Results flagged for a closer look

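Of 76 sets of values examined for a single animal far from its group, 3 held one, which is no more than chance would give at a rate of about 5%. Sdhb was high in Syn1Cre animal 1, at 14.6 IPM. Cox4i1 had 0 insertions in SP1 P28 animal 2 while the other animals held 21.6 to 26.0 IPM. Sdhaf2 stood at 60.4 IPM in SP1 P28 animal 1 against 36.4 to 39.8 in the others. In N2a, which enters no test, Cox7b2, the testis form of a complex IV subunit, held 28.5 IPM. The highest animal of the Syn1Cre, SP1 and C57bl6J groups held 0.781.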

How the results depend on the processing

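After TMM scaling 6 genes were higher at P28 and 6 at P10. With total insertions as the only scaling these counts were 27 and 16, by distinct positions 2 and 0, and within 5 kb 13 at P28. Leaving out 1 animal gave 5 to 9 at P28 and 3 to 7 at P10, the lowest without P10 animal 3. In IPM the leave-out counts were 21 to 27 and 14 to 16, and edgeR's own filter on low counts gave 14 at P28, from fewer genes tested. The median log2 fold change at P28 (-0.57) was -0.78 with DESeq2, 0.74 with total insertions, -0.38 with edgeR's filter and -0.85 to -0.42 over leave-outs. That at P10 (-1.40) was 0.52 with total insertions, -0.22 with edgeR's filter, -1.65 with no filter, -1.23 within 5 kb, -0.999 with gene-end insertions as library size, -1.14 with Syn1Cre animals 1 to 3, -1.17 with animals 4 to 6 and -1.62 to -1.05 over leave-outs. With the replicate block it was -1.14, and the block gave 24 higher genes in IPM at P28 and 14 at P10; the numbers pair no animals. Levels by distinct positions were 317 IPM in C57bl6J, 392 in GFAPCre, 494 in GFAPCreNeg, 558 in N2a, 432 in Syn1Cre, 573 in Syn1CreNeg, 1031 in SP1 P10 and 851 in SP1 P28; with at least 2 reads they were 479 in C57bl6J and 325 in Frontflip_GFAPCreNeg. Signs turned from TMM scaling to total insertions for Cox4i1 (0.91), Ndufaf4 (0.50) and Sdhaf2 (0.76) at P28 and for Cox6a1 (0.031), Cox8a (1.00) and Ndufaf4 (0.70) at P10, and for Cox8a by distinct positions at P10 (0.053). The cause was not tested. The IPM fits and the gene-end library size were chosen after seeing the data. At P10 the depth limits every gene below 11.03 IPM.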
